A study of Mus musculus with 2 samples.

Results

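Pou5f1, Nanog, Sox2 and Sall4 are the core transcription factor genes of mouse embryonic stem cells. They were chosen by symbol and make up 4 of the 50508 genes in the deposited expression table. RNA was sequenced from E14, an embryonic stem line that was derived from 129/Ola mice, at passages 15 to 18. All cells were grown on gelatin in medium with 15% FBS and 1000 U/ml LIF, the cytokine that holds mouse stem cells undifferentiated. One culture condition was transfected with scramble siRNA and the other with Mettl8 siRNA, and both were harvested 72 h later. Each group had 1 library, so no value has a replicate error and no test between the groups was made. The series record mentions triplicates, and no label says whether a library pools cultures. The libraries are called scramble-labelled and Mettl8-labelled below.

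OCT4, the protein of Pou5f1, binds DNA through a POU domain, and SOX2 binds through an HMG box. The proteins occupy neighbouring octamer and SOX elements together at many enhancers, among them those of their own genes and of Nanog. NANOG is a homeodomain protein that stabilises the undifferentiated state. SALL4 is a zinc finger protein of the spalt family that binds OCT4 and NANOG and recruits the NuRD deacetylase complex. Loss of OCT4 turns mouse stem cells towards trophectoderm, and loss of SALL4 lowers Pou5f1 expression.

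The promoter windows are shown because OCT4, SOX2 and nuclear receptors are known to regulate these genes, and letters of their motifs occur there. RefSeq windows of GRCm38.p6, the assembly of mm10, were at hand for 3 of the 4 genes, and the 250 bases before each gene's first annotated start are printed 5′ to 3′. All 3 genes lie on the plus strand. In Nanog (chr6:122707239-122707488) the capitals mark a SOX-OCT pair on the minus strand, that is CATTGT, any 1 base and then ATGCAAA. In Sox2 (chr3:34649745-34649994) they mark the octamer core ATGCAAA, and in Pou5f1 (chr17:35505782-35506031) the nuclear receptor motif AGGTCA, a motif bound by receptors such as LRH-1 and GCNF.
Nanog: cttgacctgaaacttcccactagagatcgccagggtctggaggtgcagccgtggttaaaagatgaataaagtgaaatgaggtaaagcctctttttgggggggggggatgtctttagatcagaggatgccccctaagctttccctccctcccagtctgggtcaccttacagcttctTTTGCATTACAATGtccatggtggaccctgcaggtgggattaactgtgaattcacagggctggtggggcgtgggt
Sox2: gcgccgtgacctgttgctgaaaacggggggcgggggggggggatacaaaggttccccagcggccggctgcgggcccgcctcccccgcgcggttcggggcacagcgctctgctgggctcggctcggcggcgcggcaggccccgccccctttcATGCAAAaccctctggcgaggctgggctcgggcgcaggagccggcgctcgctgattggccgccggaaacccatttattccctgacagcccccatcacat
Pou5f1: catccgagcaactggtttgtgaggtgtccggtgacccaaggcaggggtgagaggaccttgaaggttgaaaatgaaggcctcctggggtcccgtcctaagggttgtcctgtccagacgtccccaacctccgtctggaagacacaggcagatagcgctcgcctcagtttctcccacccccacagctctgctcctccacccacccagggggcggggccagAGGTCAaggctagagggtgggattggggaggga

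Of the 32851 windows of 250 bases in the RefSeq table, searched on both strands, 2 held the SOX-OCT pair with these exact letters, a share of 0.00609%. Both were windows of Nanog, which has more than 1 annotated start, and both hold the same site. Nanog was thus the only gene with these exact letters among the 27025 genes with a window. Pairs with other letters or spacing were not searched, so how many genes hold such a pair was not tested. The pair lay 62 to 75 bases before the first start of Nanog, and it contains the octamer core and the SOX core CATTGT, which are counted separately below. The octamer core occurred in 4.12% of all windows and the SOX core in 10.7%. In Sox2 the octamer core lay 93 to 99 bases before the start, with no SOX core in the window. In Pou5f1 the receptor motif lay 28 to 33 bases before the start. That motif was found in 14.0% of all windows and also once each in the Nanog and Sox2 windows. The GC box GGGCGG, a site of SP and KLF factors, was found in the Pou5f1 and Sox2 windows, and in 32.7% of all windows. The STAT site TTCNNNGAA, found in 7.02% of all windows, was in none of the 3 windows printed. These matches describe letters and are not measured binding sites.

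The targeted gene went against its label. Mettl8 was 0.67 FPKM in the scramble-labelled library and 100.3 in the Mettl8-labelled one, where a knockdown would lower it. Directions below are therefore those of the libraries as labelled. FPKM is the number of reads per kilobase of gene length and per M reads, where M is 10 to the power 6. The FPKM values fell on steps of 1 read, from which each gene's reads were recovered, and the steps correspond to 28.5 and 27.8 M reads in the scramble-labelled and Mettl8-labelled library. Protein-coding genes held 14.0 and 13.8 M of them. All intervals are exact 95% intervals for counting error only, since PCR copies of a molecule were not told apart and spread between cultures was not measured.

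All 4 genes were abundant in both libraries, and together they held 0.247% and 0.248% of the reads of protein-coding genes. Nanog was 175 FPKM (171 to 178, 11137 reads) in the scramble-labelled library and 173 FPKM (170.0 to 177, 10805 reads) in the Mettl8-labelled library. Pou5f1 was 155 FPKM (152 to 158, 9937 reads) and 164 FPKM (160.4 to 167, 10227 reads). These levels ranked 86 and 89 for Nanog and 98 and 94 for Pou5f1 among 21491 protein-coding genes.

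Sox2 was 94.8 FPKM (92.3 to 97.3, 5551 reads) in the scramble-labelled library and 85.8 FPKM (83.4 to 88.2, 4909 reads) in the other. Sall4 was 50.5 FPKM (49.4 to 51.6, 7952 reads) and 54.5 FPKM (53.4 to 55.7, 8398 reads). Sox2 ranked 184 and 211, and Sall4 ranked 399 and 382. At the deposited lengths even Sall4, the lowest of the 4, thus lay within the highest 1.86% and 1.78% of protein-coding genes. In RNA from whole cultures, fewer cells expressing a gene and less RNA per cell cannot be told apart.

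**Figure D1:**
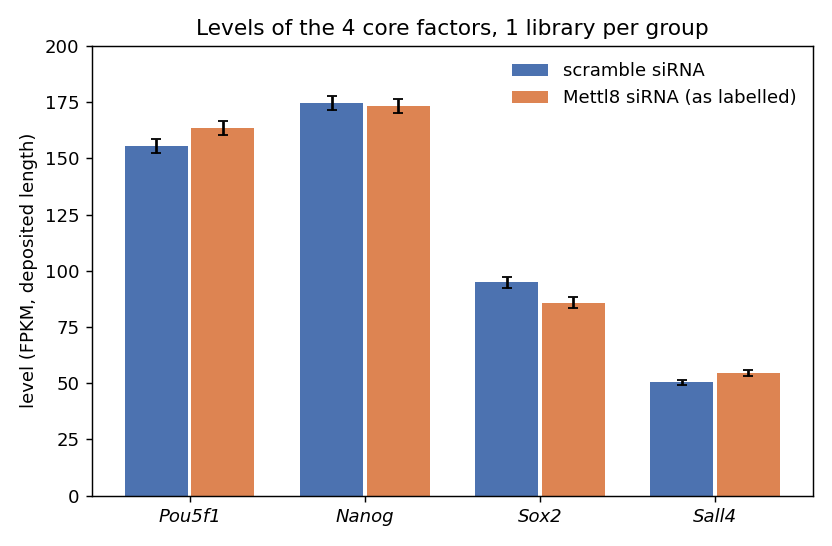
Level in FPKM (vertical axis) of each core factor in the scramble-labelled library (blue) and the Mettl8-labelled library (orange), with exact 95% Poisson intervals for counting error only. Nanog and Pou5f1 lie between 155 and 175 FPKM in both libraries, Sox2 between 85.8 and 94.8, and Sall4 between 50.5 and 54.5.

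The order from Nanog through Pou5f1 and Sox2 to Sall4 was the same in both libraries at the deposited gene lengths. Nanog exceeded Pou5f1 1.12-fold (1.094 to 1.155) in the scramble-labelled library and 1.06-fold (1.031 to 1.088) in the other, the closest neighbours in the order. Pou5f1 exceeded Sox2 1.64-fold (1.58 to 1.69) and 1.91-fold (1.84 to 1.97). Sox2 exceeded Sall4 1.88-fold (1.82 to 1.94) and 1.57-fold (1.52 to 1.63). The intervals of each of these ratios did not overlap between the libraries. All ratios of neighbours thus moved by more than counting error, while the order did not change.

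The place of Pou5f1 depends on the length by which its reads are divided. The deposited lengths of all 4 genes equal the union of their exons in GENCODE M21 on GRCm38. The Pou5f1 locus (ENSMUSG00000024406.16, chromosome 17, 35506018 to 35510772, plus strand) has 6 annotated coding transcripts, and their union is 2248 bases, while the longest of them, with 5 exons, has 1362 bases. Divided by that transcript's length, Pou5f1 was 256 and 270 FPKM, above Nanog at 177 and 176. The level of Nanog (ENSMUSG00000012396.12, chromosome 6, 122707489 to 122714633, plus strand) hardly moved, because its longest transcript has 2211 of the 2242 bases. Sall4 (ENSMUSG00000027547.17, chromosome 2, 168748332 to 168767943, minus strand) became 55.1 and 59.5 FPKM, with 5073 bases in place of 5536. The union was at least 1.65 times the longest coding transcript, as for Pou5f1, in 23.6% of the 9919 coding genes that averaged at least 1 FPKM. With all protein-coding genes divided in this way, Pou5f1 ranked 85 in both libraries, Nanog 125 in both, Sox2 253 and 299, and Sall4 529 and 499. The ranks of Nanog, Sox2 and Sall4 were thus lower than at the deposited lengths. Which transcripts the cells made was not measured.

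**Figure D2:**
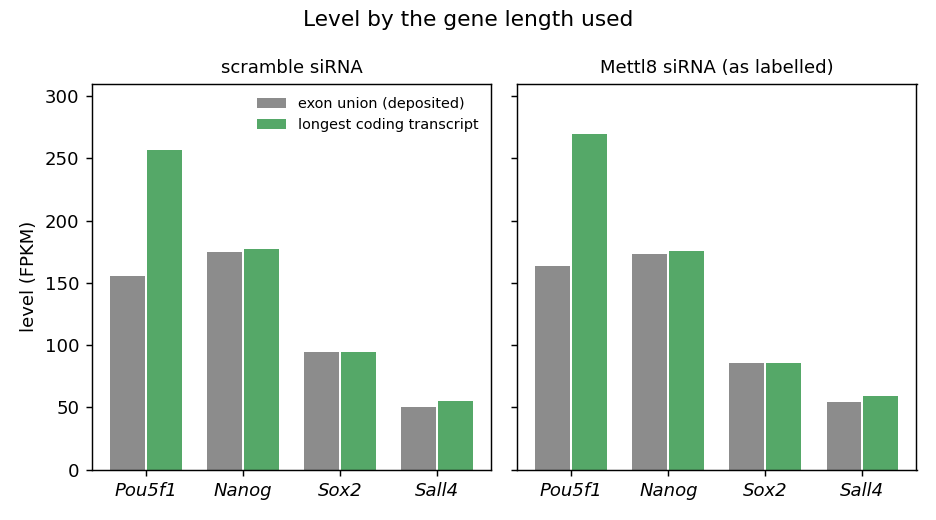
Level in FPKM (vertical axis) of each core factor with reads divided by the exon union, as deposited (grey), or by the longest annotated coding transcript (green), in each library. Pou5f1 moves from 155 and 164 to 256 and 270 FPKM and passes Nanog, and the level of Sox2 does not move.

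Sox2 (ENSMUSG00000074637.7, chromosome 3, 34650405 to 34652461, plus strand) is a gene of 1 exon, and its deposited length of 2057 bases is that exon. RefSeq places the start of Sox2 410 bases further upstream, at 34649995, so any reads from that stretch fall outside the deposited gene model. Sox2 lies inside the long non-coding gene Sox2ot on the same strand, with which it shares 0 exon bases. Sox2ot was 0.28 and 0.31 FPKM (92 and 100 reads), far below Sox2.

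A row on the other strand of the Pou5f1 locus carried many reads. Gm19553, annotated as antisense to Pou5f1, has exons at chromosome 17, 35509077 to 35509400 and 35510382 to 35510551. The second of these lies wholly within exon bases of Pou5f1, and in all 317 of its 494 bases are shared with Pou5f1. It was listed at 326 FPKM (4588 reads) in the scramble-labelled library and 343 FPKM (4718 reads) in the Mettl8-labelled library, more than Pou5f1 itself. Per base this is 9.29 and 9.55 reads, against 4.42 and 4.55 for Pou5f1. The ratio between the libraries was 1.05 (1.01 to 1.10) for Gm19553 and 1.05 for Pou5f1. The strand setting of the counting is not given in the sources used here, so reads of the gene and of its antisense row cannot be told apart, and how many belong to Pou5f1 was not tested. With all reads of Gm19553 added to Pou5f1 and divided by its length, its level would be 227 and 239 FPKM, above Nanog. Because only 317 of the 494 bases are shared, this sum also includes reads from outside Pou5f1 exons. Reads listed in both rows would be counted in it more than once, and any reads left out of both would be missing. The sum is therefore not a corrected level.

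The other rows that could share reads with the core factors held few reads. Gm14261, on the other strand at the Sall4 locus, shares 526 exon bases with Sall4 and was 5.61 and 6.26 FPKM (228 and 249 reads). Whether reads over the shared bases were left out of both rows was not tested. The few reads of Gm14261 therefore do not show how many Sall4 lost. RefSeq lists 7 pseudogenes of Pou5f1 and 2 of Nanog, of which 4 and 2 have a row in the table. Each of these 6 rows had 2 reads or fewer in either library, below the limit of 3 reads that a count of 0 allows. How reads that map to several places were treated is not given, so a share of such reads lost from Pou5f1 or Nanog was not tested.

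None of the 4 genes differed strongly between the libraries. On the scale of log2(FPKM + 1), which understates the change of low genes, 0 of 4 were at least 2-fold apart, beside 0.642% of the 13243 genes that averaged at least 1 FPKM. At 1.5-fold the count was also 0 of 4, beside 2.11%. With 4 genes, a count of 0 is close to what such background shares give. The library labelled Mettl8 siRNA minus the scramble-labelled library gave a log2 difference of 0.07 for Pou5f1, -0.01 for Nanog, -0.14 for Sox2 and 0.11 for Sall4.

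The plain ratio was 1.05 (1.02 to 1.08) for Pou5f1 and 1.08 (1.05 to 1.11) for Sall4, both slightly higher in the Mettl8-labelled library. It was 0.905 (0.871 to 0.940) for Sox2, which was lower there. For Nanog it was 0.993 (0.967 to 1.02), an interval that includes equal levels, and its sign turned with each library rescaled to the same FPKM sum. The directions of the other 3 held under every scaling run. The first 3 intervals exclude equal levels as far as counting goes. Differences of this size were common among the 2881 coding genes that averaged at least 10 FPKM, Mettl8 left out, whose log2 differences had an SD of 0.099 and a median of 0.03. Of these genes, 13.5% were at least as far apart as Sox2, 24.9% as Sall4, 44.6% as Pou5f1 and 91.5% as Nanog. The summed level of the 4 genes was 475 and 477 FPKM.

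**Figure D3:**
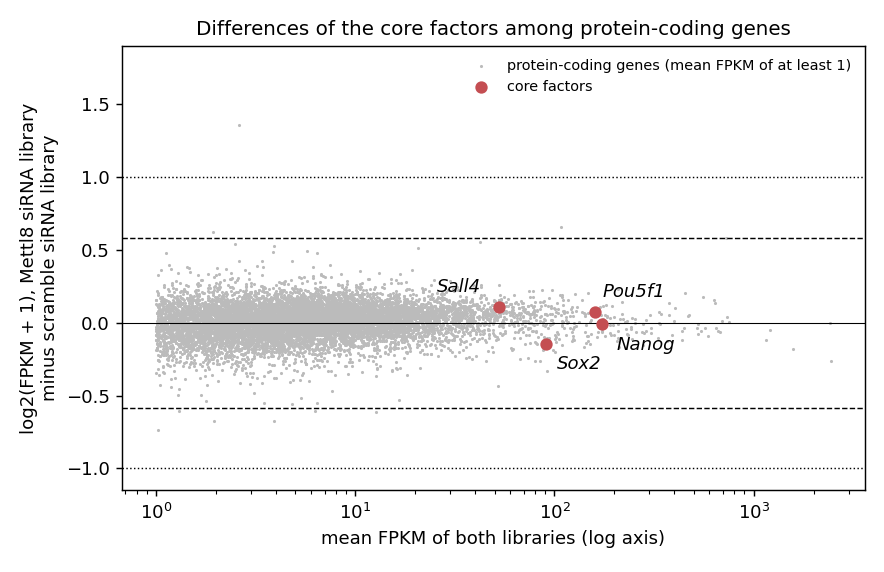
Difference of log2(FPKM + 1) between the Mettl8-labelled library and the scramble-labelled library (vertical axis) against mean FPKM (log horizontal axis) for protein-coding genes (grey, Mettl8 left out) and the core factors (red). Dashed lines mark 1.5-fold and dotted lines 2-fold, and the core factors lie between -0.14 and 0.11.

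Pou5f1 was the only abundant member of the POU family at these culture conditions. Of the other 14 POU genes, 2 had a mean FPKM of at least 1, beside 9965 of the 21491 protein-coding genes. Pou2f1, the gene of the widely expressed OCT1, was 3.09 FPKM in the scramble-labelled library and 3.13 in the Mettl8-labelled library. Pou4f1, a gene of sensory neurons, was 1.20 and 1.52 FPKM. The remaining 12 lay below 1 FPKM in both libraries. They include Pou5f2, the closest relative by name, at 0.08 and 0.13 FPKM.

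Sox2 likewise stood above the other SOX genes. Of these, 6 of 19 had a mean FPKM of at least 1, beside 9965 of the 21491 protein-coding genes. Sox15, whose protein can also pair with OCT4, came next at 10.04 and 8.89 FPKM. Sox4 was 5.94 and 5.80 FPKM, Sox13 4.38 and 4.21, and Sox12 3.59 and 3.58. Sox21 was 2.50 and 2.76 FPKM and Sox11 1.03 and 1.32. Sox1 and Sox3, the neural members of the same SOXB1 subgroup as Sox2, were at most 0.34 FPKM in either library. Of these 6 genes, 2 were higher and 4 lower in the Mettl8-labelled library, with the largest differences 0.19 for Sox11 and -0.16 for Sox15 on the log2 scale.

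Among the spalt genes, Sall4 was followed by Sall1 at 20.99 and 20.4 FPKM, whose protein also occurs with NuRD. Sall2 was 1.15 and 1.40 FPKM and Sall3 0.71 and 0.94. In the POU, SOX and SALL families 0 of the 10 other measured members were 1.5-fold apart, beside 2.11% of all 13243 genes. With 10 genes, a count of 0 is close to what that share gives.

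**Figure D4:**
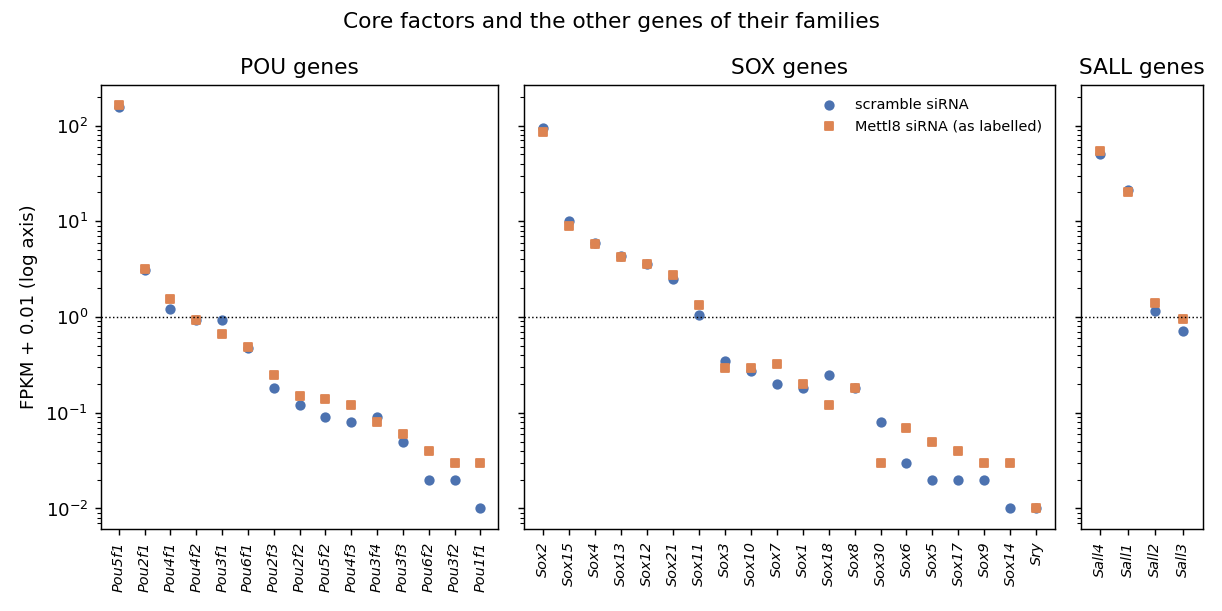
Level as FPKM + 0.01 (log vertical axis) of each POU, SOX and SALL gene in the scramble-labelled library (blue circles) and the Mettl8-labelled library (orange squares), ordered by mean level. The dotted line marks 1 FPKM, and in each family the core factor is the highest member.

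The genes known as targets that the core factors activate were all measured, 16 of 16 at a mean FPKM of at least 1. In the Mettl8-labelled library 3 were higher and 13 lower, with a median log2 difference of -0.06, beside 7166 higher and 5959 lower of all 13243 genes and their median of 0.01. This median became 0.033 with each library rescaled to the same FPKM sum, which moved the median of all genes to 0.09. None of the 16 was 1.5-fold apart, beside 2.11% of all 13243 genes. Tdgf1, a NODAL co-receptor gene, was 125 and 121 FPKM. Zfp42, the stem cell marker gene also called Rex1, was 103.7 and 98.0 FPKM. Spp1, the gene of osteopontin, was 91.7 and 99.5 FPKM, Fbxo15 76.0 and 75.7, Upp1 68.1 and 66.0, and Esrrb 50.1 and 48.3. The largest differences were those of Utf1, a chromatin-associated stem cell factor gene at 43.5 and 36.9 FPKM, and Lefty1, a NODAL inhibitor gene at 19.6 and 16.9. Their log2 differences were -0.23 and -0.21.

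The genes of protein partners of OCT4, NANOG, SOX2 and SALL4 were also measured throughout, 33 of 33. There were 20 higher and 13 lower, with a median log2 difference of 0.03. At 1.5-fold the count was 0, beside 2.11% of all genes that averaged at least 1 FPKM. Trim28, the gene of the corepressor KAP1, was the most abundant of them at 211 and 215 FPKM. This is above the core factors at the deposited lengths, but below Pou5f1 with the reads of Gm19553 added. The level of Trim28 by its longest coding transcript was not computed, so its order with Pou5f1 on that basis is not given. Xpo1, an export receptor gene, was 75.9 and 83.8 FPKM, Parp1 61.4 and 61.0, Klf5 56.3 and 53.0, and the histone chaperone gene Rbbp7, a NuRD subunit, 54.9 and 54.1. The largest differences were -0.27 on the log2 scale for the zinc finger gene Zfp143 (5.51 and 4.39 FPKM) and -0.15 for Chd4, the NuRD remodeler gene (26.5 and 23.8 FPKM).

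Of 19 genes of factors reported to act on the promoters or enhancers of Pou5f1 and Nanog, 17 were measured. There were 8 higher and 9 lower, beside 7166 higher and 5959 lower of all 13243 genes. At 1.5-fold the count was 0 of 17, beside 2.11% of all genes that averaged at least 1 FPKM. The median log2 difference of the 17 was -0.01, which became 0.075 with each library rescaled to the same FPKM sum. The Kruppel-like factor genes Klf2 (52.6 and 45.5 FPKM) and Klf4 (20.1 and 17.5 FPKM) were lower by -0.20 and -0.19 on the log2 scale. Trp53, the gene of p53, was 36.7 and 38.7 FPKM, and Sp1 17.5 and 18.3. The largest difference was -0.23 for Tcf7l1, a repressor of Nanog at the end of the WNT pathway, which was 2.51 and 1.99 FPKM (ratio 0.793, 0.661 to 0.95). Nanog itself had a log2 difference of -0.01, and a link between the levels of Tcf7l1 and Nanog was not tested.

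Enzymes and modifiers that act on the core proteins, for example by ubiquitin or methyl groups, were measured in 17 of 17 cases. The split was 7 higher to 10 lower, beside 7166 to 5959 for all 13243 genes. The median log2 difference of the 17 modifiers was -0.01, beside 0.01 for all genes. With each library rescaled to the same FPKM sum these medians became 0.083 and 0.09. A 1.5-fold difference was reached by 0 of the 17, beside 2.11% of all 13243 genes. For 17 genes, a count of 0 is close to what that share gives. The abundant modifiers included Parp1, the O-GlcNAc transferase gene Ogt (30.9 and 30.1 FPKM), the kinase gene Mapk3 (23.2 and 23.1) and the ubiquitin conjugase gene Ube2s (20.7 and 20.5). Protein levels and modifications were not measured.

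**Figure D5:**
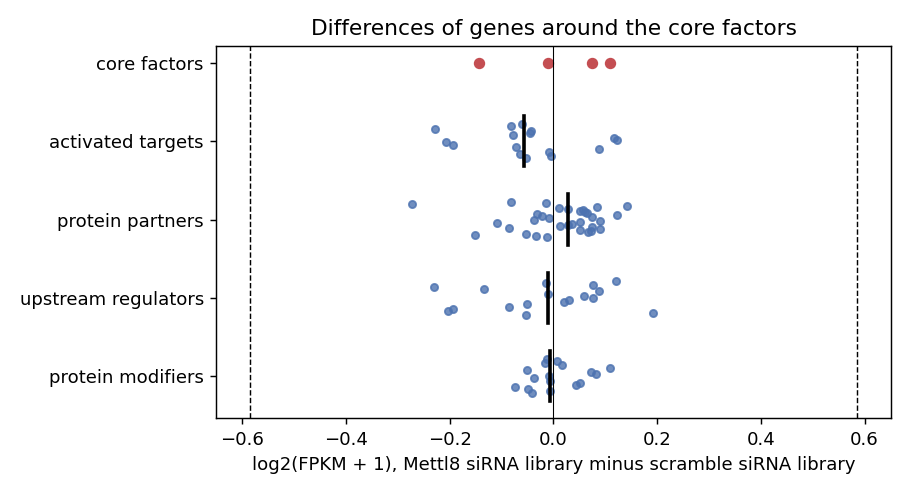
Difference of log2(FPKM + 1) between the Mettl8-labelled library and the scramble-labelled library (horizontal axis) for the core factors (red) and for 4 lists of genes around them (blue, 1 point per gene that averaged at least 1 FPKM, black bars at list medians). Every point lies inside the dashed lines at 1.5-fold, and the list medians lie between -0.06 and 0.03.

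Lineage factor genes that the core factors are known to hold silent were low. Of 26, 1 had a mean FPKM of at least 1, beside 9965 of the 21491 protein-coding genes. It was the neural gene Pax6 at 1.06 and 1.27 FPKM. The summed level of the 26 was 4.21 FPKM in the scramble-labelled library and 4.8 in the Mettl8-labelled library, with 4 and 2 genes listed at 0. By comparison, Sall4 alone was above 50 FPKM in both.

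The labelled cell type was checked against marker genes. A mean FPKM of at least 1 was reached by 9965 of the 21491 protein-coding genes. All 17 stem cell markers reached it, from Dppa3 at 2.91 and 2.46 to Dppa5a at 578 and 564 FPKM. There were 6 higher and 11 lower, beside 7166 higher and 5959 lower of all 13243 genes. The largest differences were those of Utf1 and Dppa2 (26.01 and 29.9 FPKM). The median log2 difference of the 17 markers was -0.037 and became 0.057 with each library rescaled to the same FPKM sum. Markers of primitive endoderm (9 genes, summed level 1.35 and 1.58 FPKM), mesoderm (7 genes, 1.93 and 2.24) and fibroblasts (11 genes, 2.15 and 1.74) had 0 members at that level. Trophectoderm markers had 2 of 8, Krt8 (2.45 and 2.47 FPKM) and Krt18 (3.11 and 2.80), with a summed level of 6.60 and 6.48. Neural markers had 3 of 7, Tubb3 (17.9 FPKM in both), Nes (1.06 and 1.21) and Pax6, with a summed level of 20.2 and 20.7. The stem cell markers Zfp42, Esrrb, Fgf4, Utf1, Tdgf1, Fbxo15 and Tcl1 are also on the list of activated targets. All of these were lower in the Mettl8-labelled library at the deposited scaling, so the counts of those lists are not independent. Several lineage markers are likewise on the list of lineage factors.

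The 3 protein-coding genes nearest to each core factor in level were found over the 2 libraries. By Euclidean distance over log2(FPKM + 1), those nearest to Nanog were the glycolytic genes Ldha (172.9 and 175.0 FPKM, distance 0.020) and Aldoa and the elongation factor gene Eef1g. Nearest to Pou5f1 was the chaperonin gene Cct2 (152 and 154 FPKM, distance 0.091), and the ribosomal protein gene Rpl10a was also among the nearest. Nearest to Sox2 were the histone genes Hist1h4c (95.7 and 88.1 FPKM, distance 0.040) and Hist1h2bl with Rps10 between them. Nearest to Sall4 were E2f4 (49.9 and 55.2 FPKM, distance 0.024), a cell cycle factor gene, G3bp1 and Cct3. With 2 libraries this likeness describes a level and a small difference only.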

How the data were processed

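RNA of E14 cells was sequenced in 2 libraries, 1 per siRNA. The authors deposited FPKM values, rounded to 2 decimals, and a gene length for 50508 genes named by symbol. STAR 2.4.0i, featureCounts 1.5.0-p1 and mm10 are named per the submitters' processing notes. Neither the annotation nor the settings for strand and for reads with several places are given in the sources used here. GENCODE M21 (GRCm38) holds 94.3% of the symbols, and the deposited length equals its exon union for 85.9% of rows. It gave gene types, positions and transcript lengths.

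FPKM multiplied by length fell on whole reads for 100% of 3120 and 3561 values of genes under 400 bases with fewer than 30 reads, within the rounding plus 0.005 reads. These steps gave the reads of each gene, approximately in long genes, where the rounding blurs the steps. Levels have exact Poisson intervals and ratios exact Clopper-Pearson intervals at 95%, for counting error only. Differences are log2(FPKM + 1), a pseudocount of 1, for genes that averaged at least 1 FPKM. With 1 library per group no test was made. Motifs were searched in RefSeq windows (GRCm38.p6). The steps were tested on simulated data. Python 3.11.15, NumPy 2.4.6, pandas 2.3.3 and SciPy 1.17.1 were used.

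The genes and lists were chosen with earlier results of these data known. Some genes are on more than 1 list, so the counts and medians of the lists are not independent. Named are, per list, up to 6 genes by level that averaged at least 10 FPKM and the 2 largest differences, measured paralogs, rows overlapping or derived from a core factor, and the 3 nearest genes by level. Some genes this rule names are not reported here. Sox1, Sox3, Sall3, Pou5f2, Dppa3, Gm14261, Gm19553 and Gm23935 were added for context after their values were seen. Alternatives covered the pseudocount (0.1), scaling, filter, fold, length and the addition of overlapping rows.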

Additional observations from a re-analysis of the deposited data

How the results depend on the processing

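The limits are those of 1 library per group: spread between cultures is unknown, and the label of the siRNA library is contradicted by Mettl8. No paired analysis was possible because each group has 1 library, which leaves no residual degrees of freedom, and leaving out a replicate does not apply. The addition of overlapping reads was chosen after seeing the data. Under the scalings, filters and pseudocounts run, 0 of the 4 core factors reached 1.5-fold.

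With each library rescaled to the same FPKM sum, the log2 differences became 0.17 for Pou5f1, 0.082 for Nanog, -0.050 for Sox2 and 0.20 for Sall4, so that Nanog changed sign. This sum rests to 33.3% and 32.1% on Gm23935, a gene of 57 bases, and it took the median over all genes to 0.09 from 0.01. The levels became 150.4 and 169.0 FPKM for Pou5f1, 169.0 and 179 for Nanog, 91.8 and 88.7 for Sox2, and 48.9 and 56.4 for Sall4. The other scalings and the pseudocount kept all 4 differences inside their counting intervals. By the longest coding transcript, Pou5f1 was 256 and 270 FPKM and Sall4 55.1 and 59.5. With overlapping reads added, Pou5f1 was 227 and 239 FPKM and Sall4 51.9 and 56.1, while both differences stayed inside their counting intervals.

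The 85 genes at least 2-fold apart became 280 at 1.5-fold, 176 with a pseudocount of 0.1, 164 without a filter, 5 among genes averaging at least 5 FPKM and 2 among protein-coding genes. The rescaling to the same sum moved the median of protein partners to 0.12. It turned those of the activated targets (0.033) and modifiers (0.083) from below to above 0. The medians of the upstream regulators (0.075), stem cell markers (0.057) and other SOX genes (0.060) turned likewise. The lineage factor list rests on Pax6, and its median of 0.14 became 0.24 with a pseudocount of 0.1, 0.19 with the rescaling, 0.13 with the median ratio set to 0, 0.17 when scaled by protein-coding reads and 0.026 without a filter. That last value includes all 26 genes. Except for the shift common to all genes under the rescaling, the cause of these moves was not tested.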
